A study of Mus musculus with 6 samples.

Results

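Solute carriers are the membrane proteins, named Slc with a family number, that move amino acids, metals, sugars, nucleotides, lipids and ions across the plasma membrane and the membranes of organelles. Their genes were followed here in E14 mouse embryonic stem cells, an established line kept feeder-free on gelatin with serum and LIF. All 6 samples were transfected with an shRNA plasmid and taken at day 4. The 3 control samples received a scrambled sequence, and the other 3 received one labelled by the sample titles as Ncoa3 shRNA, Ncoa3 being a coactivator of nuclear receptors. Members were the probes whose platform gene symbol begins with Slc and a number, without Slc2a1, Slc2a3, Slc3a2, Slc7a5, Slc7a11, Slc22a18 and the Slco genes. That gave 642 probes for 351 genes. A gene counted as measured when a probe passed detection (p under 0.01) on 3 or more of the 6 arrays. This held for 172 genes, of 9569 measured named genes in all.

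In background terms, amino acid carriers of the Slc1, Slc6, Slc7 and Slc38 families take up or exchange amino acids at the cell surface and at lysosomes. Slc25 carriers pass metabolites through the inner mitochondrial membrane. Slc30 proteins move zinc out of the cytosol, into vesicles or out of the cell, and most Slc39 proteins move it in. In embryonic stem cells amino acid uptake feeds growth, and several of these genes are known to respond to amino acid supply or to metal load.

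Of the 179 genes that were not measured, 149 had no probe detected on any array, 19 had a best probe detected on 1 array and 11 on 2 arrays. At the edge of the detection rule, the 16 probes detected on 2 arrays had mean raw intensities from 95.2 to 104.07, and the 22 detected on 3 arrays from 97.4 to 145.8. Among the measured genes, 139 were detected on all 6 arrays. A further 4 were detected on all 3 knockdown and no scrambled arrays, and 4 the other way round, so that each of these 8 had to differ in order to enter. The symbols Slc7a6os, Slc4a1ap, Slc9a3r1 and Slc9a3r2 met the rule although they name partners or neighbours of a carrier rather than transporters.

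Each array detected between 15720 and 17105 probes. Arrays of one group correlated at 0.995 to 0.997 across measured features, and arrays of different groups at 0.970 to 0.973. The single Ncoa3 probe stayed at background throughout (raw intensity 93.0 ± 6.90 in scrambled and 89.8 ± 1.92 in knockdown samples, SD, n = 3), so the arrays did not check the knockdown. The treatment protocol names an Esrrb plasmid instead, and the detected Esrrb probe was lower after knockdown by a log2 change of -0.62. All 10 stem cell markers (among them Pou5f1, Sox2 and Nanog) were measured and all 10 were lower, with a summed signal of 79301 to 81070 in scrambled and 60910 to 62901 in knockdown samples. Of 14 trophectoderm markers, 10 were measured, 9 were higher and 1 lower, and their summed signal was 629 to 693 against 2496 to 2552, while Hand1 and Eomes were not detected on any array. For extraembryonic endoderm, 5 of 10 markers were measured, with 3 higher and 1 lower, sums of 260 to 273 against 445 to 508, and Gata4 and Sox17 not detected. Of 8 fibroblast markers only Thy1 was measured, at 155 to 192 against 56 to 67. These shifts accompany every result that follows, and their part in it was not tested. In RNA from whole cultures, fewer cells of a type and less RNA per cell cannot be told apart.

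Values are log2 intensities after background correction and quantile normalisation. Because 16 was added to each signal, values near 4 to 5 lie at background and changes of dim genes are understated. Changes are given as knockdown less scrambled, with the standard error (SE), and a gene was called when limma's adjusted p, taken over all 11782 features, was under 0.05. Features were 9569 named genes and 2213 unnamed probes, so shares of all features are not shares of named genes alone.

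Solute carrier genes moved in both directions. Of the 172 genes, 88 were called (51.2%, where 46.9% of all features were), 37 of them higher (21.5%, against 22.5% of all features) and 51 lower (29.7%, against 24.3%). With a change of at least 1.5-fold, 44 genes were called, or 25.6% where 16.1% of all features were, 19 higher (9.31% of all features) and 25 lower (6.82% of all features). Their median change was -0.06, and that of all features -0.03, while the median size of change was 0.31 against 0.23. The groups did not overlap for 105 of the genes (61%), and for 57.8% of all features. The split depended on scaling, since with median scaling over all probes 51 were called higher and 34 lower, the median of the genes was 0.07 and that of all features moved up by 0.12. Rises then made up 60% of called Slc genes and 69.1% of called features, from 42% and 48.1%. None of the 88 called genes changed sign under any of the 17 alternatives. Leaving out background correction gave 28 genes at 1.5-fold, and the authors' normalised values gave 23. The share of all features at 1.5-fold was not taken under either setting. Without the 4 symbols that name no transporter, 37 were higher and 50 lower. The 88 include the genes that entered through the arrays of a single group, all of which were called. Among the 139 genes detected on all 6 arrays, 77 were called (55.4%), 31 higher and 46 lower. A refit on all features so detected called 49.9% of them. At 1.5-fold 35 of the 139 were called (25.2%), and the share of features so detected was not taken.

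**Figure D1:**
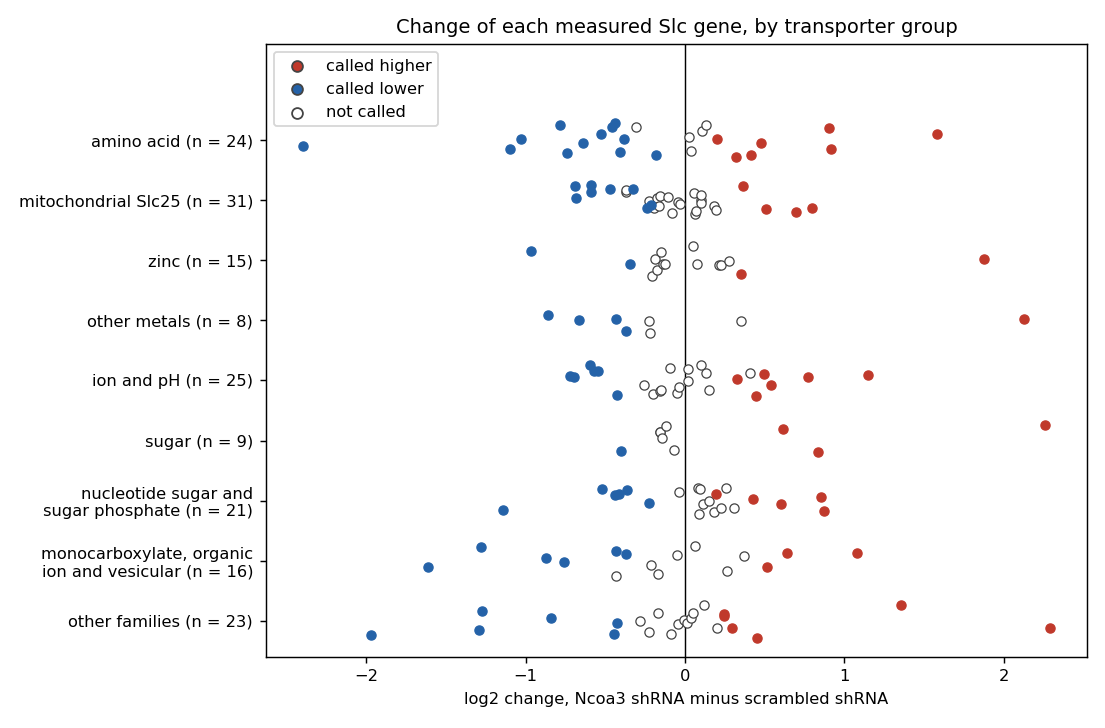
Change of each of the 172 measured Slc genes on the log2 scale (Ncoa3 shRNA minus scrambled shRNA), 1 point a gene, placed by transporter group with a random vertical offset. Red points were called higher, blue points lower, and white points were not called. The points run from -2.40 (Slc38a5) to 2.29 (Slc27a2), and the amino acid group has the fewest white points for its size. The value of Slc38a5 is fitted, with its knockdown arrays at background.

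The largest rises came from carriers of unrelated substrates. Slc27a2, which imports very long-chain fatty acids and couples them to coenzyme A, read 7.23, 7.03 and 7.09 on the scrambled arrays and 9.48, 9.39 and 9.36 on the knockdown arrays. Every knockdown array lay above every scrambled array, a 4.89-fold rise (2.29 ± 0.07, adjusted p = 1.30e-06), and its second kept probe rose by 2.11. Slc5a5, the sodium-iodide symporter of the thyroid, read 7.29, 7.14 and 7.32 against 9.44, 9.59 and 9.50. It rose 4.80-fold (2.26 ± 0.07, adjusted p = 1.31e-06), although its second kept probe changed by only 0.88. Slc40a1, or ferroportin, the iron exporter, read 7.21, 7.19 and 7.05 against 9.32, 9.34 and 9.18 and so rose 4.37-fold (2.13 ± 0.08, adjusted p = 1.74e-06). Slc27a3, an acyl-CoA synthetase of the same family as Slc27a2, rose 2.56-fold, from 7.39 ± 0.15 to 8.75 ± 0.02 (SD, n = 3). The remaining measured members of that family, Slc27a1 and Slc27a4, named after their values were seen, had changes of -0.23 and -0.01 that did not pass the test.

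Slc4a11, a proton-conducting member of the bicarbonate family, rose 2.22-fold, from 5.12 ± 0.15 to 6.27 ± 0.12 (SD, n = 3). It was detected on 2 of 3 scrambled arrays, and its change of 1.15 was 0.49 in the authors' values. Slc16a6, a monocarboxylate family member that exports ketone bodies in zebrafish liver, rose by 1.08, whereas its other kept probes had changes of 0.18 and 0.47. Slc35b4, a Golgi carrier of nucleotide sugars, rose 1.80-fold (0.85 ± 0.06). Slc35g2 was not above background on any scrambled array, so that it entered through the knockdown arrays alone and its rise is bounded at 1.14-fold or more.

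Slc38a5 fell furthest. This exchanger of glutamine and other small neutral amino acids read 7.05, 7.18 and 7.13 on the scrambled arrays, whereas the knockdown arrays, at 4.82, 4.66 and 4.69, were all at background. Its fall of at least 4.13-fold (fitted change -2.40 ± 0.07), for a gene that entered through the scrambled arrays alone, became -1.15 in the authors' values, which hold no background subtraction. Slc66a2 read 10.43, 10.50 and 10.53 against 8.54, 8.49 and 8.51, a 3.91-fold fall with little spread in either group (-1.97 ± 0.06, adjusted p = 9.78e-07). It fell further than Slc38a5 in the authors' values (-1.69) and without background correction (-1.79 against -1.165). Slc32a1, which loads GABA and glycine into synaptic vesicles, read 6.70, 6.54 and 6.62 against 4.68, 5.17 and 5.17. The knockdown values were near background, detected on 2 of 3 arrays, and the change of -1.61 was -0.73 in the authors' values.

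Carriers of vitamins, drugs and nucleosides made up the next falls. Slc52a3, a riboflavin transporter, fell 2.45-fold, from 8.66 ± 0.04 to 7.36 ± 0.10 (SD, n = 3). Slc47a1, which extrudes organic cations and drugs, fell 2.42-fold, from 7.63 ± 0.08 to 6.35 ± 0.05. Slc29a3, an intracellular nucleoside transporter, read 9.09, 8.94 and 9.01 against 7.85, 7.66 and 7.71 and fell 2.42-fold (-1.27 ± 0.07, adjusted p = 1.67e-05). Slc37a1, a glucose-6-phosphate antiporter of the endoplasmic reticulum, fell 2.20-fold (-1.14 ± 0.07). Slc17a9, the vesicular nucleotide transporter, fell by 0.87 on its reported probe and by 0.80 on the other. Slc41a3, of the magnesium transporter family, fell by 0.86 ± 0.14, with a wider spread among scrambled arrays (6.72, 6.30 and 6.18) than among knockdown arrays (5.43, 5.55 and 5.64), and its second probe changed by -0.43. In the authors' values the change of Slc41a3 was -0.39.

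**Figure D2:**
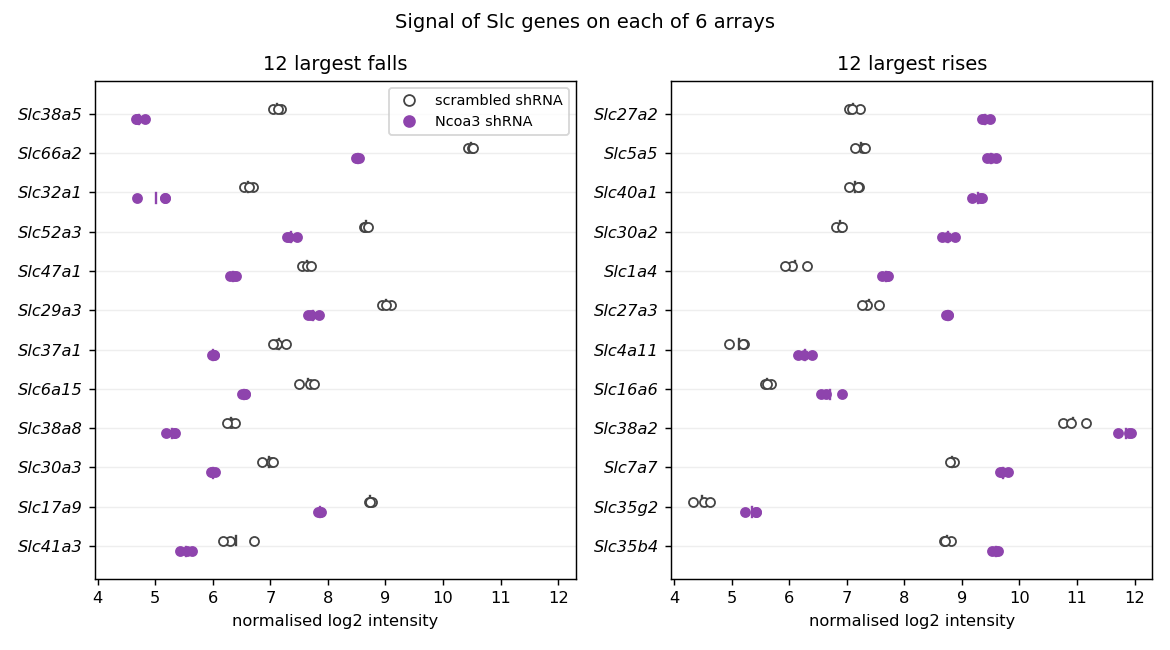
Normalised log2 intensity of the 12 Slc genes with the largest falls (left) and the 12 with the largest rises (right), 1 point an array, open for scrambled shRNA and filled for Ncoa3 shRNA (3 each), with a short bar at each group's mean. The groups do not overlap for any of the 24 genes, which the choice of genes required. Levels are not comparable between genes.

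The amino acid families (Slc1, Slc3, Slc6, Slc7, Slc36, Slc38 and Slc43) were set by family number, so that not every member carries amino acids. They had 24 measured genes of 56 on the array, among them Slc7a6os, which names no transporter. Of the 24, 12 fell while 7 rose, leaving 5 that missed the threshold. The called share was 79.2%, where 46.9% of all features were called, and the median change was -0.24, described here without a test against other genes. At 1.5-fold or more, 6 were lower and 3 higher, or 37.5% where 16.1% of all features were. All 6 measured Slc6 genes were called, 5 lower and 1 higher, where 24.3% of all features were lower and 22.5% higher. In Slc38, 2 rose, 2 fell (28.6% each) and 3 were not called.

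Falls covered carriers of several amino acid classes, and also carriers of creatine, taurine and betaine. Slc7a3, a surface importer of arginine and lysine, read 11.90, 11.95 and 11.93 against 11.14, 11.11 and 11.18, a 1.72-fold fall with an SE of 0.06 on the log2 scale. Slc6a15, a carrier of branched-chain amino acids and proline, fell 2.14-fold (-1.10 ± 0.08), and its second probe fell by 0.89. Slc38a8, of the glutamine carrier family, fell 2.04-fold (-1.03 ± 0.07), and Slc7a4 fell by 0.74 ± 0.11. In the authors' values these 2 changes were -0.45 and -0.37. Slc6a8, the creatine importer, fell by 0.64 ± 0.08. Slc6a6, the taurine importer (named after its values were seen), fell by 0.53 ± 0.06 on its reported probe, while its second kept probe had a change of -0.24. Smaller falls, named after their values were seen, were those of the glutamate carrier Slc1a1 (-0.46), the betaine and GABA carrier Slc6a12 (-0.44), Slc7a6 (-0.40), the proline carrier Slc6a7 (-0.38) and Slc43a1 (-0.18), whose second probe had a change of 0.13 and whose call held in only 3 of 17 alternatives.

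Rises were led by Slc1a4, an exchanger of alanine, serine and cysteine, which read 6.05, 5.93 and 6.31 on the scrambled arrays and 7.62, 7.70 and 7.72 on the knockdown arrays. It rose 2.99-fold (1.58 ± 0.10, adjusted p = 2.62e-05), and by 0.99 without background correction. Slc38a2, a sodium-coupled importer of small neutral amino acids that cells induce when amino acids are scarce, rose 1.88-fold, from 10.93 ± 0.20 to 11.85 ± 0.12 (SD, n = 3). Slc7a7, which exchanges cationic for neutral amino acids, rose 1.87-fold from 8.82 ± 0.04 to 9.72 ± 0.07, and its second probe gave 0.94. Slc6a9, a glycine transporter, rose by 0.48, Slc36a1, an amino acid carrier of lysosomes, by 0.42, and Slc1a3, a glutamate transporter, by 0.32. Slc38a7, which releases glutamine from lysosomes, rose by 0.20 (chosen after its value was seen), a call that held in 11 of 17 alternatives. The call of Slc6a9 was lost with scrambled replicate 2 left out (0.40, adjusted p = 0.0678) or replicate 3 (0.49, adjusted p = 0.0507) and without the filter on dim probes. That of Slc1a3 was lost when any of scrambled replicates 1 and 2 or knockdown replicates 1 and 2 was left out (0.26, 0.30, 0.30 and 0.29), and with the replicate number as a block (adjusted p = 0.053).

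Within single families the direction was mixed. Slc38a2 rose while Slc38a5 and Slc38a8 fell, and Slc38a1 (0.11 ± 0.09) and Slc38a9 (0.13 ± 0.10), an arginine sensor of lysosomes, did not pass the test (both named after their values were seen). Another kept probe of Slc38a9 had a change of -0.41, past the threshold when every kept probe was tested, against the sign of the reported one. In Slc7, Slc7a7 rose while Slc7a3, Slc7a4 and Slc7a6 fell. The number of rises in the amino acid families was 4 without scrambled replicate 2, and with median scaling over all probes the number of falls was 7. That scaling moved the median of all features up by 0.12.

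Of the mitochondrial Slc25 genes, 46 were on the array and 31 measured, with 8 falls, 4 rises and 19 genes that missed the threshold. Falls made up 25.8% and rises 12.9%, beside 24.3% and 22.5% of all features, and the median change was -0.11 with a median size of 0.20 (0.23 over all features). Slc25a36, a pyrimidine nucleotide carrier, fell by 0.69 ± 0.08, from 9.92 ± 0.15 to 9.23 ± 0.02 (SD, n = 3), and its 3 kept probes ran from -0.74 to -0.52. Slc25a1, the citrate carrier that supplies cytosolic acetyl-CoA, read 9.88, 9.98 and 9.94 against 9.37, 9.16 and 9.22 (-0.68 ± 0.07, adjusted p = 2.76e-04). Slc25a12, an aspartate-glutamate carrier of the malate-aspartate shuttle, fell by 0.59 on its reported probe and by 1.31 on its second. Slc25a25, an ATP-Mg/phosphate carrier, fell by 0.59. Slc25a37, or mitoferrin-1, an iron importer, fell by 0.47 ± 0.12, and the ornithine carrier Slc25a15 fell by 0.33 ± 0.09.

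Calls for Slc25a37 and Slc25a15 were lost with median scaling over all probes (-0.30 and -0.20). Slc25a15 was also not called when any of scrambled replicates 1 and 2 (-0.30 and -0.32) or knockdown replicates 1 and 3 (-0.26 and -0.31) was left out, nor was Slc25a37 without knockdown replicate 3 (-0.45). The fall count was 5 without knockdown replicate 1 and 4 with median scaling over all probes, under which 7 rose and the median of all features moved up by 0.12.

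Of the 4 that rose, Slc25a17 is a carrier of peroxisomes despite its family number. It read 8.65, 8.67 and 8.73 against 9.28, 9.45 and 9.42 (0.70 ± 0.07, adjusted p = 1.62e-04). Slc25a42, a coenzyme A carrier, rose by 0.36 ± 0.09. Slc25a24, an ATP-Mg/phosphate carrier, and Slc25a43 were above background only on the knockdown arrays, with bounds of at least 1.26-fold and 1.14-fold. For Slc25a24 knockdown replicate 2 (6.01) stood above the other knockdown arrays (5.19 and 5.30), and without it the fitted change went from 0.80 to 0.52. Slc25a43 was not called in the authors' values (0.15, adjusted p = 0.0507), and on genes detected on all 6 arrays 2 Slc25 genes rose. Changes of -0.08 ± 0.06 for the adenine nucleotide exchanger Slc25a5 and 0.10 ± 0.11 for the phosphate carrier Slc25a3 (both named after their values were seen) did not pass the test.

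**Figure D3:**
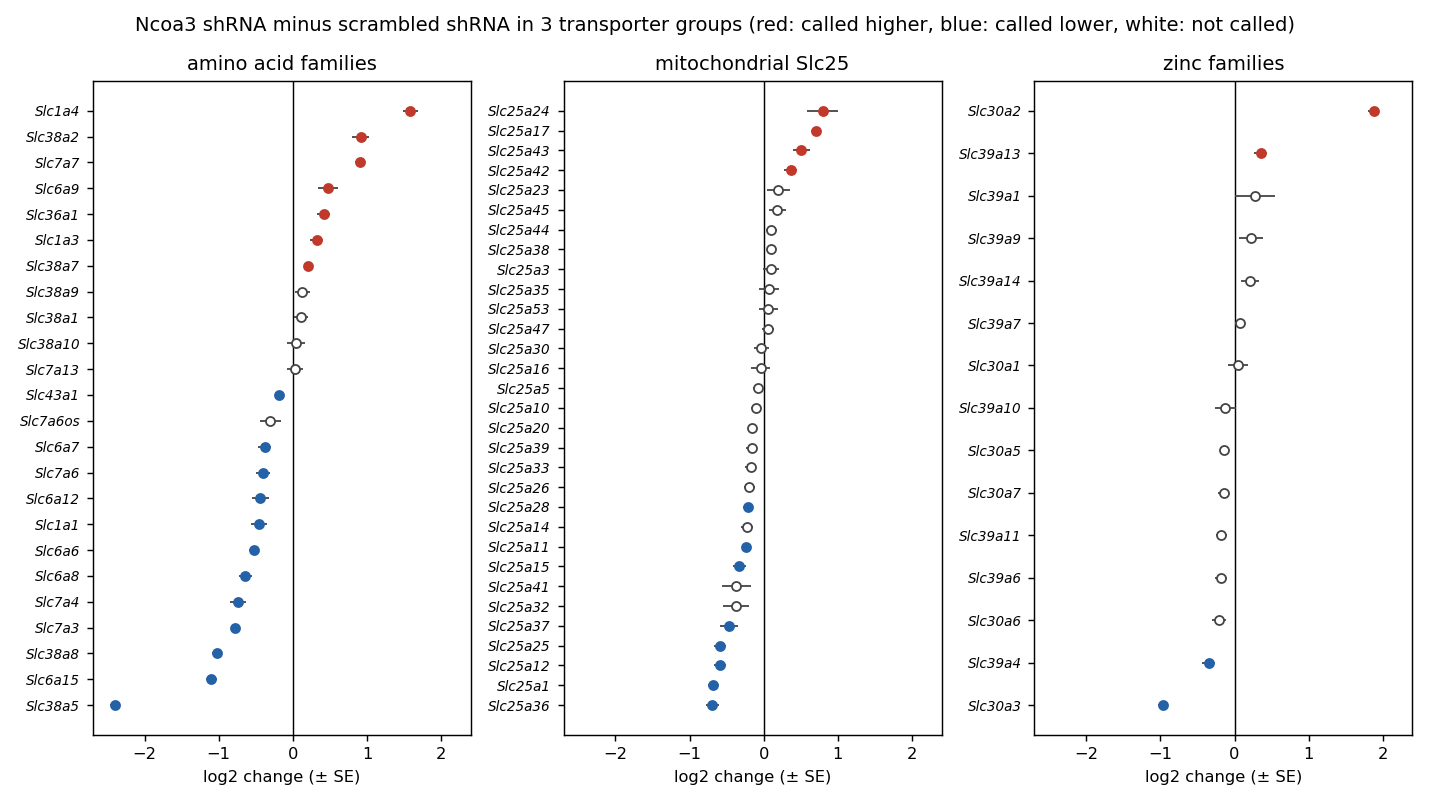
Log2 change with its SE (bars) for each measured gene of the amino acid families (24), mitochondrial Slc25 (31) and the zinc families (15), in order of change. Red points were called higher, blue lower, and white were not called. Slc38a5 at -2.40, Slc1a4 at 1.58 and Slc30a2 at 1.88 stand apart from the rest of their panels, and Slc25 stays between -0.69 and 0.80. The value of Slc38a5 is fitted, with its knockdown arrays at background.

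Promoter sequences are shown for zinc and amino acid carriers whose genes rose, and for one that did not. RefSeq windows (GRCm38.p6, 250 bases before to 50 after a start) were given for 136 of the 172 genes. Metal response cores, TGCACNC or TGCGCNC on either strand, bind the zinc-sensing factor Mtf1 in metallothionein genes, and matches are in capitals for these 2 zinc exporters, of which Slc30a2 rose and Slc30a1 did not pass the test.
Slc30a2, chr4:134343216-134343515, + strand: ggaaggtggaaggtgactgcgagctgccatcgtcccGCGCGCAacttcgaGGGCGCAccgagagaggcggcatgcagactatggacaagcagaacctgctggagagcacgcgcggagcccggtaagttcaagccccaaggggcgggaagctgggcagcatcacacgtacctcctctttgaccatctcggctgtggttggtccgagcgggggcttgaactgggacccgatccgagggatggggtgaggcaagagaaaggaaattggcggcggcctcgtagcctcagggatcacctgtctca
Slc30a1, chr1:191906531-191906830, + strand: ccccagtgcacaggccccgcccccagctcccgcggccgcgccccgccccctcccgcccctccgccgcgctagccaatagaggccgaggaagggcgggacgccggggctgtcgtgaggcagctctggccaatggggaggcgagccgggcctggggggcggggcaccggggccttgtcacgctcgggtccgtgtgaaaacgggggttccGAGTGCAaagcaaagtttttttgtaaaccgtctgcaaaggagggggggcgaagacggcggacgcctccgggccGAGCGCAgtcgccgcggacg
Windows of the next pair carry TGATGNAA, the type of element through which amino acid shortage acts, in capitals on either strand.
Slc1a4, chr11:20332664-20332963, - strand: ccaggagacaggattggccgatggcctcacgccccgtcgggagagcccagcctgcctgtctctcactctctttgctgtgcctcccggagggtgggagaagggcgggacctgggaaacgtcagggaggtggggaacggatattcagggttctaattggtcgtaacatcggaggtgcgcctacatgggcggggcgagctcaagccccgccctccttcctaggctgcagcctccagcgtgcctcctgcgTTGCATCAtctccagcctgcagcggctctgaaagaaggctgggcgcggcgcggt
Slc7a7, chr14:54417895-54418194, - strand: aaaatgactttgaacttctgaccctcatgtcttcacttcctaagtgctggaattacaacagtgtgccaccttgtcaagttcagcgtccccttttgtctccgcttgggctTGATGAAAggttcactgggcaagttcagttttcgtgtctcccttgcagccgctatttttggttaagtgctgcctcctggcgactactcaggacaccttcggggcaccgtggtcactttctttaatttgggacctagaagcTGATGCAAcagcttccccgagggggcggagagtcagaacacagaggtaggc

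A metal core lay in 7 of 15 windows of measured zinc genes (46.7%), in 25.7% of all 32851 windows, in 33.9% of all windows of members, in 31.7% of those of genes that rose, in 26.4% of those of genes that fell and in 39.3% of those of genes that did not pass the test. TGATGNAA lay in 3 of 41 windows of genes that rose (7.32%), which were those of Slc1a4 and Slc7a7, in 0 of 53 of genes that fell, in 2 of 89 of genes that did not pass the test (2.25%) and in 3.97% of all windows. Among the other amino acid carriers that rose, the windows of Slc38a2, Slc36a1, Slc1a3 and Slc6a9 held no match, and 2 of the windows of Slc7a7 did. Some windows of 1 gene overlap. TCAAGGTCA, the motif bound by Esrrb, was in 0 of 183 windows of members and in 0.423% of all. A match is a string of letters and does not show binding.

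Of 23 Slc30 and Slc39 genes on the array 15 were measured, with 2 rises, 2 falls and 11 genes that missed the threshold. The called share was 26.7%, where 46.9% of all features were called, and the difference was not tested. Slc30a2, which moves zinc into secretory vesicles, read 6.90, 6.82 and 6.92 on the scrambled arrays and 8.65, 8.74 and 8.88 on the knockdown arrays. This was a 3.67-fold rise (1.88 ± 0.08, adjusted p = 2.79e-06) with no overlap of the groups. Slc30a3, which loads zinc into synaptic vesicles, read 7.02, 6.85 and 7.04 against 5.99, 6.04 and 5.97, a 1.96-fold fall (-0.97 ± 0.07, adjusted p = 4.29e-05). In the authors' values the change of Slc30a3 was -0.50. Slc30a1, the exporter at the cell surface, had a change of 0.05 ± 0.13. The exporters of the secretory pathway, Slc30a5, Slc30a6 and Slc30a7, had changes of -0.14, -0.21 and -0.15 that did not pass the test.

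Of the importers, Slc39a4, the zinc importer of the intestine, fell by 0.35 ± 0.09, and Slc39a13, of intracellular vesicles and the Golgi, rose by 0.35 ± 0.09 on its reported probe, with 0.07 on its second. With median scaling over all probes Slc39a4 was not called (-0.22, adjusted p = 0.0659), and the median of the zinc families went from -0.12 to 0.01. That of all features moved up by 0.12. The other 7 importers, none past the test, were Slc39a6 (-0.19), Slc39a11 (-0.18), Slc39a10 (-0.12), Slc39a7 of the endoplasmic reticulum (0.07), Slc39a14, which also carries iron and manganese (0.21), Slc39a9 (0.22) and Slc39a1 (0.28). Slc39a1 was detected on 1 scrambled array, and scrambled replicate 3 (5.72) lay far above the other scrambled arrays (4.63 and 4.73), and without it the change was 0.63 with an adjusted p of 0.00285. Without knockdown replicate 2, 4 zinc genes were lower, with Slc30a6 (-0.30) and Slc39a6 (-0.27) added. Slc39a14 was called with median scaling over all probes (0.35, adjusted p = 0.0362) and Slc39a7 in the authors' values (0.16, adjusted p = 0.031). Slc39a11 was called without background correction (-0.15, adjusted p = 0.0458), with another background correction (-0.15, adjusted p = 0.0497) and with scrambled replicate 3 left out (-0.23). The call of Slc39a6 was also gained with a trended and robust prior, and that of Slc30a7 (-0.21) with scrambled replicate 1 left out.

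Metallothioneins, which bind zinc and share the factor Mtf1, were on a list of partners of these carriers, with 33 genes on the array and 27 measured. Of those, 11 rose (40.7%, against 22.5% of all features) and 7 fell (25.9%, against 24.3%), with a median change of 0.13. Mt1 rose by 1.26 ± 0.06 and Mt2 by 1.01 ± 0.09, while Mtf1 itself fell by 0.36 ± 0.06. Among genes of amino acid sensing at the lysosome, Rragd, a GTPase that recruits mTORC1, rose by 1.17 ± 0.08 and Castor2, of an arginine sensor family, by 0.70. The leucine-sensing family member Sesn1 fell by 0.62 and Rragb by 0.39. In the same part of the list Lamtor1 (0.30), Lamtor2 (0.27), Fnip1 (0.27), Rragc (0.19) and Flcn (0.18) also rose. Its other measured genes, Lamtor4, Sesn2, Castor1, Mtor and Rptor, did not pass the test. Among mitochondrial partners Mtch1, an outer membrane protein of the Slc25 type, rose by 0.92 ± 0.06 and Timm10, an import chaperone, fell by 0.54 ± 0.06. Micu2 (0.25) also rose, and Vdac3 (-0.41), Mtch2 (-0.32) and Timm9 (-0.24) also fell. Letm1, Mcu, Vdac1 and Vdac2 did not pass the test.

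Other metal carriers, named after their values were seen except Slc40a1 and Slc41a3, had 8 measured genes, with 1 higher and 4 lower. In this group 12.5% were higher and 50% lower, beside 22.5% and 24.3% of all features. The divalent metal carriers Slc11a1 and Slc11a2 fell by 0.66 and 0.43, and the copper importer Slc31a1 by 0.37. Further kept probes of Slc11a2 had changes of -0.44 and of -0.12, the latter not past the test. The copper carrier Slc31a2 (0.35), the heme carrier Slc48a1 (-0.23) and Slc41a1 (-0.22) did not pass the test.

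Ion and pH families had 25 measured genes, 6 higher (24%, against 22.5% of all features) and 6 lower (24%, against 24.3%). Slc12a8 rose by 0.77 ± 0.05, from 8.82 ± 0.02 to 9.59 ± 0.02 (SD, n = 3), and the scaffold Slc9a3r2, which binds sodium-proton exchangers but is no carrier, fell by 0.72 ± 0.07. Slc4a1, the chloride-bicarbonate exchanger of red cells, and Slc9b2 were at background on every knockdown array and fell at least 1.20-fold and 1.23-fold (named after their values were seen). Sugar families, set by family number (Slc2, Slc5, Slc45 and Slc50) so that not every member carries sugars, had 9 measured genes. Of these 3 were higher (33.3%) and 1 lower (11.1%), beside 22.5% and 24.3% of all features. Apart from Slc5a5 the rises were those of Slc45a4 (0.62) and Slc5a8, a monocarboxylate carrier bounded at 1.21-fold or more, both named after their values were seen. Further kept probes of Slc45a4 had changes of 0.66 and of 0.18, the latter not past the test.

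Nucleotide sugar and sugar phosphate carriers of the Slc35 and Slc37 families had 21 measured genes, 5 higher and 6 lower. These were 23.8% and 28.6%, beside 22.5% and 24.3% of all features. The 16 measured carriers of monocarboxylates, organic ions and vesicles gave 3 higher (18.8%, against 22.5% of all features) and 6 lower (37.5%, against 24.3%). Among the rises was Slc22a23 at 0.64 ± 0.09, detected on 1 scrambled array and with a change of 0.23 in the authors' values. Slc13a4, a sulfate carrier at background after knockdown (named after its value was seen), fell at least 1.45-fold. The remaining 23 genes, of vitamin, nucleoside, lipid, choline and other families, gave 6 higher and 6 lower (26.1% each, against 22.5% and 24.3% of all features). In the nucleoside family Slc29 the surface carrier Slc29a1 fell by 0.84 (named after its value was seen) beside Slc29a3, and by 1.10 on its second probe. Slc29a4, a monoamine carrier, was called higher at 0.25 on its reported probe and lower at -0.37 on its second, so its direction is uncertain, and the first call was lost when scrambled replicate 3 (0.21), knockdown replicate 1 or knockdown replicate 3 (0.23 in both) was left out.

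Probes of 1 gene mostly moved alike. Several probes were kept for 52 genes, and 13 of these had probes of opposite sign, 3 of them among 28 called genes, and the 69 further probes differed from the reported one by a median of 0.12 on the log2 scale. The 3 called genes were Slc29a4, Slc43a1 and the carnitine importer Slc22a5, whose probes ran from -0.39 to 0.32 (the last 2 chosen after their values were seen). Some genes not called on the reported probe had another kept probe past the threshold when every kept probe was tested. Besides Slc38a9 these were Slc25a20 (-0.37), Slc44a1 (0.48), Slc20a1 (0.50) and Slc38a10 (-0.49), named after their values were seen. The reverse also occurred. Called genes with a further kept probe that did not pass included Slc11a2 (-0.12), Slc35e2 (-0.02), Slc4a8 (0.02) and Slc45a4 (0.18), named after their values were seen. Counts of called genes and of genes not called therefore both rest on the choice of probe.

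**Figure D4:**
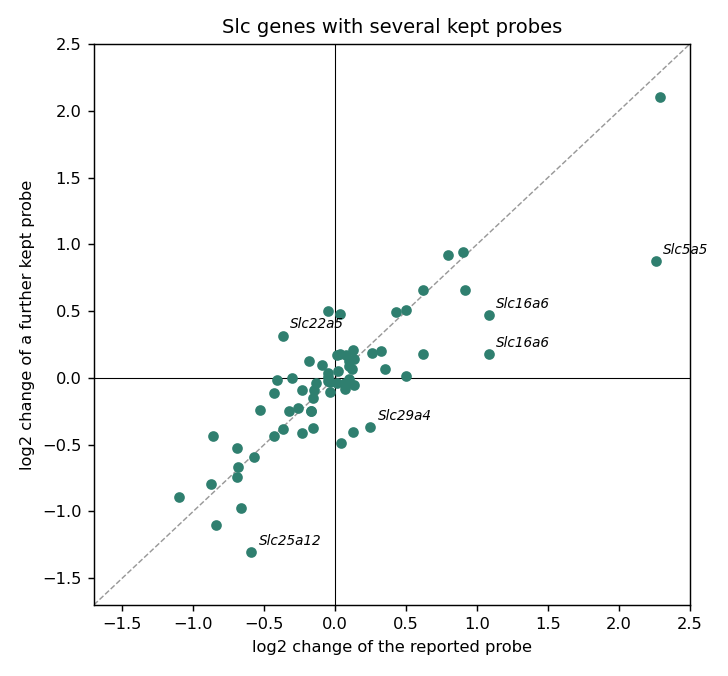
Log2 change of the reported probe (horizontal) against that of each of 69 further kept probes of the same gene (vertical), for 52 Slc genes, with a dashed line of equality. The 6 points over 0.6 from the line in log2 change are named, among them Slc5a5 at 2.26 and 0.88 and Slc29a4 at 0.25 and -0.37.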

How the data were processed

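Total RNA of 3 scrambled and 3 Ncoa3 shRNA samples was measured on Illumina bead arrays, with groups and replicate numbers taken from the titles. Per the file headers, the deposited probe intensity was non-normalized (lowest values 45 to 54.2, so not background-subtracted). The deposited detection p-value beside each signal is relative to negative controls. The authors' normalised intensity, a second deposited table, kept the rank order of the raw signal (rank correlation 1), and its method is not given in the sources used here. Its scale is linear, with a median per column of 92.7, 93.5 and 92.4 in the scrambled samples and of 89.4, 88.4 and 87.6 in the knockdown samples, each in order of replicate number.

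Raw signal was corrected and quantile normalised with neqc (offset 16) of limma 3.58.1 in R 4.3.3. Of 45281 probes, 16674 had a detection p under 0.01 on 3 or more arrays. Platform annotation named 34885 probes with 1 gene and 18 with several, and 10378 were unnamed. Each gene stood by its kept probe with the highest mean and each unnamed probe stood for itself. That gave 11782 features, of which 9569 were named genes and 2213 unnamed probes. RefSeq (GRCm38.p6) held the same symbol for all 172 members. Groups were compared with lmFit and eBayes, 2-sided, with Benjamini-Hochberg adjustment over all features, and functions were tested on simulated data. p-values measure the spread between samples labelled biological replicates, and their number limits the precision. A bound sets the brighter group's mean against the higher of the dim probe's value and the lowest detected signal on each array.

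Named genes were, among called members whose groups did not overlap, the 12 largest rises and 12 largest falls, every measured zinc gene, up to 6 called amino acid and 6 called Slc25 genes in each direction, the largest called change in other families with 4 or more measured genes, and genes with probes called in opposite directions. Members and lists were chosen with earlier results of these data known. Alternatives changed the background correction, normalisation, probe filter, probe summary, prior, array weights and replicate block, or left out 1 array.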

Additional observations from a re-analysis of the deposited data

How the results depend on the processing

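Of the 88 called genes, 61 were called with the same sign in every one of 17 alternatives that measured them, 27 higher and 34 lower, and 0 changed sign. Those 61 include every gene that entered through the arrays of a single group, except Slc25a43. At 1.5-fold, 44 genes became 28 if background was left uncorrected and 23 with the authors' values, without a share of all features beside them. With median scaling over all probes, falls numbered 7 in the amino acid families, 4 in Slc25 and 1 in the zinc families, and Slc25 rises 7. Under that scaling the median of all features moved up by 0.12, and rises made up 69.1% of called features, from 48.1%. On probes detected on all 6 arrays, Slc25 rises numbered 2. With each array left out in turn, rises of all genes ran from 31 to 34, falls from 47 to 51, amino acid rises from 4 to 6, amino acid falls stayed at 11, Slc25 rises ran from 4 to 5, Slc25 falls from 5 to 8, zinc rises from 2 to 3 and zinc falls from 2 to 4. The lowest amino acid count was without scrambled replicate 2 (4), the lowest Slc25 count without knockdown replicate 1 (5) and the highest zinc count without knockdown replicate 2 (4). The cause of these shifts was not tested. Same-numbered arrays did not deviate together (correlations of -0.003, -0.012 and 0.016), so numbers were not taken as pairs, and with the replicate block 34 genes were higher and 48 lower. The exclusion of 4 symbols that name no transporter was chosen after seeing the data. Slide as a block was not run, because no slide is given in the sources used here. Signal near background limits the changes of dim genes.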
